A study of Mus musculus with 8 samples.

Results

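The genes described here are 32 silencing factors of mouse embryonic stem cells (ESCs), from pathways linked to repression of the 2-cell-like state. They are called repressors below as a name for the set, and this role was not tested here for any of them. They were taken by symbol from the table of read counts per gene, where all 32 were found among 55573 identifiers and all 32 were among the 20608 genes with enough counts to test. They comprise the corepressor KAP1 with the H3K9 methyltransferases and 2 zinc-finger proteins, the 3 HP1 proteins, the HUSH complex with MORC proteins, the CAF-1 and ASF1 histone chaperones, the LSD1-CoREST-HDAC complex, the Polycomb complex PRC1.6, SUMO2 and CTCF. Polyadenylated RNA was sequenced from 8 libraries of mouse ESCs, 2 from each of 4 groups.

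The first group, 2C::GFP+/SA (SA cells), was 2C::GFP+ ESCs in medium with 2 µM AS8351, 2 µM SGC0946, IL6 and soluble IL6 receptor where the other media held LIF. The second, 2C::GFP+/SGC (SGC cells), was the same line given 2 µM SGC0946 with LIF. Both media held KnockOut serum replacement. The third, 2C::GFP+, was the line untreated, and the fourth, mESC, was untreated wild-type ESCs. SGC0946 inhibits the H3K79 methyltransferase DOT1L, and AS8351 is known as a KDM5B inhibitor. The series is about bringing ESCs to a totipotent-like state with small molecules.

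The labels name no reporter construct, age, clone or sorting step, and give 2 possible media for untreated ESCs, a defined medium with 2 kinase inhibitors and LIF or KnockOut serum replacement with LIF. The group and any difference in medium between 2C::GFP+ cells and mESC therefore cannot be told apart, nor can AS8351 and the change from LIF to IL6 between SA and SGC cells. The 2 columns used for untreated 2C::GFP+ carry the name of a serum replacement (KOSR) and were assigned to that group by elimination, without use of expression, so every comparison with 2C::GFP+ cells rests on that assignment. The labels do not say that the 2 libraries of a group came from separate cultures, so p-values measure only the spread between these libraries, which may be technical.

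Cells of the 2-cell-like state arise at low frequency in ESC cultures and transcribe genes and endogenous retroviruses of the 2-cell embryo. In the silencing system described here, KRAB zinc-finger proteins bind retroviral sequence and recruit KAP1, which brings the methyltransferase SETDB1. HP1 proteins bind the methylated H3K9, and histone deacetylases, LSD1 and CAF-1 act on the same chromatin by removing active marks or by delivering new histones after replication. In ESCs, depletion of CAF-1, G9a, KAP1, LSD1, PRC1.6 subunits or SUMO2 is known to increase transcripts of this state.

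The libraries held 12299931 to 145810034 counts, with replicate 1 holding 7.46 to 9.62 times the total of replicate 2 in each group. No gene of the 32 had fewer than 220 counts in any library. The 8 ESC markers summed to 3482 and 3109 CPM (read counts scaled by edgeR's TMM library sizes) in SA cells, 3649 and 3413 in SGC cells, 4776 and 3892 in 2C::GFP+ cells, and 4285 and 4186 in mESC. The 10 markers of the 2-cell-like state summed to 9238 and 3567 CPM in SA cells, 1729 and 1683 in SGC cells, 701 and 846 in 2C::GFP+ cells, and 3.89 and 11.4 in mESC, and 2 of them, Duxf3 and Zfp352, had no count in at least 1 library. The 2 SA libraries thus differed from each other in these markers. Their counts also lay further apart, with a chi-square per degree of freedom of 47.6 in SA cells, 18.2 to 22.6 in the remaining groups.

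Markers of other cell types also differed between groups. The 8 primitive endoderm markers summed to 177 and 339 CPM in SA cells, 55.5 and 68.4 in SGC cells, 67.35 and 73.9 in 2C::GFP+ cells, and 214 and 317 in mESC, and 7 of 8 were higher in SA cells than in 2C::GFP+ cells (none lower). Lama1 alone made 106.4 and 209.5 CPM of these sums in SA cells and 208.9 and 310.5 CPM in mESC, and against mESC too 7 of the 8 were higher in SA cells and none was lower, with a median log2 fold change of 4.34. The 10 fibroblast markers summed to 38.3 and 32.5 CPM in SA cells, 22.3 and 21.3 in SGC cells, 14.1 and 16.0 in 2C::GFP+ cells, and 8.34 and 13.2 in mESC. Of these, 6 (Col3a1, Col6a1, Dcn, Lum, Postn and S100a4) had no count in at least 1 library, and of the 6 tested 4 were higher in SA cells than in 2C::GFP+ cells. The 8 trophoblast markers summed to 14.4 to 18.0 CPM in the libraries of the 3 2C::GFP+ groups and to 38.5 and 47.7 CPM in mESC, and none of the 7 tested differed between SA and 2C::GFP+ cells. Over all tested genes, 14.9% were called higher in SA cells than in 2C::GFP+ cells, and 25% were called higher in SA cells than in mESC. Marker transcripts in bulk RNA do not show whether other cells were present, and any part of such cells in the results that follow was not tested.

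In SA cells compared with untreated 2C::GFP+ cells, 12 of the 32 repressors were lower and 2 were higher. The largest fall was in Chaf1b, which encodes a CAF-1 subunit, to 41% of the level in 2C::GFP+ cells, and the largest rise was in Zfp809, a KRAB zinc-finger gene, to 3.39 times that level. A gene was called changed at an adjusted p under 0.05 in edgeR's quasi-likelihood test on counts, fitted to all 8 libraries, with Benjamini-Hochberg adjustment across the 20608 genes. By this rule 28.7% of all tested genes changed in this comparison, 14.9% higher and 13.8% lower. The repressors are well-expressed genes, and among genes with a mean of at least 10 CPM, as all 32 had, 37% changed, 12.1% higher and 24.9% lower. The share of repressors called was 43.8%, with 6.25% higher and 37.5% lower. Their median log2 fold change was -0.19, against 0.01 over all tested genes and -0.16 over genes with a mean of at least 10 CPM. In bulk RNA, fewer cells of a type and less RNA per cell cannot be told apart.

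Between SA and SGC cells 6 repressors were called, 1 higher and 5 lower, where 16.1% of all tested genes were called (7.92% higher, 8.18% lower) and 23.6% of those with a mean of at least 10 CPM (9.67% higher, 14% lower). No repressor was called between SGC and 2C::GFP+ cells, and neither was any other gene (0% by edgeR). That comparison had 2037 genes at an unadjusted p under 0.05, and DESeq2 called 271 genes and 0 repressors. Between 2C::GFP+ cells and mESC 6 repressors were called, 5 higher and 1 lower, against 24.3% of all genes (15.2% higher, 9.12% lower) and 28.5% of those at 10 CPM or more (15.1% higher, 13.4% lower). Between SA cells and mESC 16 were called, against 45.1% of all genes (25% higher, 20.1% lower) and 52.1% of those at 10 CPM or more (18.5% higher, 33.6% lower). Of the 16 repressors, 6 were higher and 10 lower. With the median-of-ratios scaling of edgeR or with DESeq2, 16 were again called, 8 higher and 8 lower, but these were not all the same genes. Under each, 14 of the 16 calls were kept, the lower calls of Ehmt2 and Morc2a were lost, and none changed direction. Asked whether a gene differed in any way among the 4 groups, the test called 14 repressors, where 44.9% of all genes and 53.8% of those at 10 CPM or more were called. These comparisons share libraries and are not independent of each other.

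**Figure D1:**
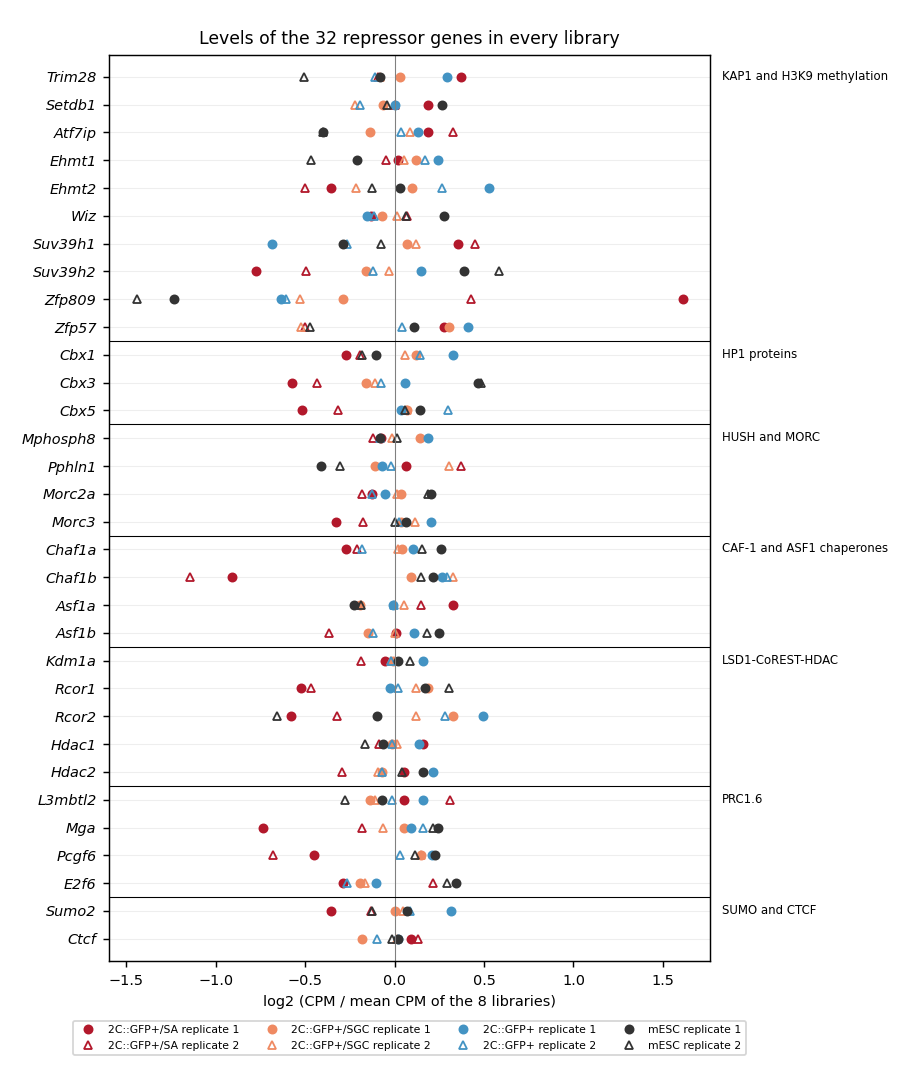
Level of each of the 32 repressor genes in each of the 8 libraries, as log2 of its CPM over its mean CPM of the 8 libraries (horizontal axis), with genes down the page by complex, circles for replicate 1 and triangles for replicate 2. The SA libraries (dark red) lie left of the other 6 for Chaf1b, Pcgf6, Ehmt2, Cbx5 and Cbx3 and right of them for Zfp809 and Suv39h1.

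The plot of levels by library shows the widest range across libraries for Zfp809, followed by Chaf1b and Suv39h2. Some calls depend on the fit. In a limma fit to log2(TPM + 1), where TPM is the authors' expression value per transcript length, 7 repressors passed between SA and 2C::GFP+ cells: Suv39h1, Suv39h2, Cbx3, Morc3, Rcor1, Mga and Sumo2 did not, at adjusted p between 0.0552 and 0.10. With each library left out in turn, between 4 and 13 of the 14 calls in that comparison were kept: 4 without replicate 1 of 2C::GFP+ and 8 without replicate 1 of SA.

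KAP1 and SETDB1, the core of the pathway, were called in no comparison. Trim28, which encodes KAP1, had 3697 and 2676 CPM in SA cells, 2919.7 and 2694 in SGC cells, 3499.7 and 2646 in 2C::GFP+ cells, and 2693 and 2009 in mESC. Setdb1, the enzyme for H3K9 trimethylation that KAP1 recruits, had 234 and 206 CPM in SA cells, 197 and 177 in SGC cells, 206 and 180.4 in 2C::GFP+ cells, and 248 and 199.8 in mESC. The SA libraries overlapped those of 2C::GFP+ cells for Trim28 and lay just above them for Setdb1, with log2 fold changes of 0.05 ± 0.19 (SE; edgeR adjusted p = 0.87) for Trim28 and 0.19 ± 0.14 (SE; edgeR adjusted p = 0.35) for Setdb1. Against mESC, the log2 fold change of Trim28 was 0.44 ± 0.19 (SE; edgeR adjusted p = 0.084) in SA cells and 0.39 ± 0.19 (SE; edgeR adjusted p = 0.17) in 2C::GFP+ cells, with overlapping libraries in both comparisons. Atf7ip, the partner that stabilises SETDB1, had 256 and 282 CPM in SA cells, 205 and 239 in SGC cells, 247 and 231 in 2C::GFP+ cells, and 171 and 171 in mESC. It was lowest in both mESC libraries and highest in both SA libraries. It was higher than in mESC in 2C::GFP+ cells, with a log2 fold change of 0.49 ± 0.13 (SE; edgeR adjusted p = 0.012), and in SA cells, with 0.66 ± 0.13 (SE; edgeR adjusted p = 0.00081). The first of these calls was lost without replicate 1 of 2C::GFP+ (edgeR adjusted p = 0.07), without replicate 1 of mESC (0.074) or without replicate 2 of mESC (0.07), and in the limma fit (0.14).

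G9a and GLP, encoded by Ehmt2 and Ehmt1, place H3K9 mono- and dimethylation as a heterodimer. Of the 2 genes, Ehmt2 was lower in SA cells than in 2C::GFP+ cells, and Ehmt1 was not called there. Ehmt2 (GRCm38 chromosome 17, 34898469 to 34914052, plus strand) had 160.1 and 145 CPM in SA cells, 219 and 176 in SGC cells, 295 and 246 in 2C::GFP+ cells, and 209 and 188 in mESC. Every SA library lay below all 6 others. Against 2C::GFP+ cells the log2 fold change was -0.83 ± 0.14 (SE; edgeR adjusted p = 0.00094), and this call held in all 18 alternatives tried, with values from -0.95 to -0.67. Against mESC, Ehmt2 was higher in 2C::GFP+ cells, with 0.45 ± 0.14 (SE; edgeR adjusted p = 0.037), and lower in SA cells, with -0.38 ± 0.14 (SE; edgeR adjusted p = 0.045). Both calls were weak: the first was lost without replicate 1 of 2C::GFP+ (edgeR adjusted p = 0.21), replicate 1 of mESC (0.077) or replicate 2 of mESC (0.23), and the second in 12 of 18 alternatives, at adjusted p up to 0.23, among them DESeq2 and the fits without either mESC library, without either SA library, without replicate 1 of 2C::GFP+ or without replicate 1 of SGC.

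Ehmt1 had 128 and 123 CPM in SA cells, 138 and 131 in SGC cells, 150.2 and 142 in 2C::GFP+ cells, and 109.7 and 91.6 in mESC. It was higher in 2C::GFP+ cells than in mESC, with a log2 fold change of 0.54 ± 0.13 (SE; edgeR adjusted p = 0.0072), a call lost without replicate 2 of mESC (edgeR adjusted p = 0.13). Between SA and 2C::GFP+ cells its log2 fold change was -0.22 ± 0.13 (SE; edgeR adjusted p = 0.22). Wiz, a zinc-finger partner that helps to recruit the G9a-GLP dimer, had 78.3 and 89.98 CPM in SA cells, 81.8 and 86.6 in SGC cells, 77.05 and 79.2 in 2C::GFP+ cells, and 104 and 89.8 in mESC, and was called in no comparison.

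SUV39H1 and SUV39H2 both trimethylate H3K9 at pericentric heterochromatin and at retrotransposons, and their 2 genes moved in opposite directions. Suv39h1 had 23.5 and 25.1 CPM in SA cells, 19.3 and 19.98 in SGC cells, 11.4 and 15.3 in 2C::GFP+ cells, and 15.1 and 17.4 in mESC. Both SA libraries lay above all others, and both SGC libraries lay above those of 2C::GFP+ cells and mESC, which overlapped each other. Its log2 fold change was 0.87 ± 0.20 (SE; edgeR adjusted p = 0.0057) between SA and 2C::GFP+ cells and 0.58 ± 0.20 (SE; edgeR adjusted p = 0.03) between SA cells and mESC. Suv39h2 had 13.98 and 16.9 CPM in SA cells, 21.4 and 23.4 in SGC cells, 26.5 and 21.98 in 2C::GFP+ cells, and 31.3 and 35.9 in mESC. Both SA libraries lay below all others and both mESC libraries above all others. Its log2 fold change was -0.66 ± 0.19 (SE; edgeR adjusted p = 0.016) between SA and 2C::GFP+ cells and -1.13 ± 0.19 (SE; edgeR adjusted p = 0.00025) between SA cells and mESC, and the call against mESC held in all 18 alternatives.

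Between SA and 2C::GFP+ cells the Suv39h1 call was lost without replicate 1 of 2C::GFP+ (edgeR adjusted p = 0.074), and the Suv39h2 call was lost there (0.16) and without replicate 1 of SA (0.11). Between SA cells and mESC the Suv39h1 call was lost without replicate 2 of SA (edgeR adjusted p = 0.089), replicate 1 of mESC (0.15) or replicate 2 of mESC (0.056). Reads could also be shared, since 14.6% of the exonic bases of Suv39h1 lie opposite Gm14820 exons and 10% of its sister's lie opposite those of Dclre1c and Gm13184, and the strand setting of the authors' counting is not given in the sources used here. Dclre1c had 7.09 and 7.78 CPM in SA cells and 14.3 and 9.58 in SGC cells. Its levels were 13.9 and 10.99 CPM in 2C::GFP+ cells and 20.6 and 20.4 in mESC. It was called lower in SA cells than in 2C::GFP+ cells (log2 fold change -0.76, edgeR adjusted p = 0.031) and than in mESC (-1.47, 0.00027). Gm14820, at 3.84 to 11.55 CPM, was called in neither comparison. The part of shared reads in the Suv39h1 and Suv39h2 calls was not tested.

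Promoters of the pair are shown because the genes moved in opposite directions. They are from RefSeq (GRCm38.p6), run from 250 bases before to 50 bases after a transcript start, read 5′ to 3′ on the gene's strand, and have each CG dinucleotide in capitals. Suv39h1, on the minus strand at chrX:8074711-8075010, held 15 CG dinucleotides and 53.0% G and C. Suv39h2, on the minus strand at chr2:3474937-3475236, held 33 and 68.3%. A second window of Suv39h1, not printed, at chrX:8074312-8074611, held 37 and 71.0%, both above the values of Suv39h2.
Suv39h1: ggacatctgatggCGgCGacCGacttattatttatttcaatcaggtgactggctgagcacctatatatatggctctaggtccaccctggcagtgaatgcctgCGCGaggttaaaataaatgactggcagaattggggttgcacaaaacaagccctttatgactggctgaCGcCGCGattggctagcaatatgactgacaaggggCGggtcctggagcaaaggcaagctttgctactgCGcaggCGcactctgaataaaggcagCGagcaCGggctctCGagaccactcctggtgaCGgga
Suv39h2: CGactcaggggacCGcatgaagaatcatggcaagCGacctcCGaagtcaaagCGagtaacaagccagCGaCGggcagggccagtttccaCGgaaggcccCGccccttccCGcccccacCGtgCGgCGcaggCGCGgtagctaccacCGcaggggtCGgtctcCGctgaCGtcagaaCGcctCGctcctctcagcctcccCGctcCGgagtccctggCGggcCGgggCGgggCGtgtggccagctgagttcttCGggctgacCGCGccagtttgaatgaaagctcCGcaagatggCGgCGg

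Of the 2 KRAB zinc-finger genes, Zfp809 was higher in SA cells than in each other group, and Zfp57 was called in no comparison. Zfp809 encodes a protein that binds the primer-binding site of proviruses that use a proline transfer RNA and recruits KAP1 to them. Zfp809 (GRCm38 chromosome 9, 22225714 to 22243354, plus strand) had 398 and 175 CPM in SA cells, 107 and 90.7 in SGC cells, 84.2 and 85.8 in 2C::GFP+ cells, and 55.5 and 48.04 in mESC. The 4 groups did not overlap and ran in that order from high to low, and the 2 SA libraries differed from each other more than the 2 of any other group. Its log2 fold change was 1.76 ± 0.37 (SE; edgeR adjusted p = 0.017) between SA and 2C::GFP+ cells, 1.54 ± 0.37 (SE; edgeR adjusted p = 0.041) between SA and SGC cells, and 2.47 ± 0.38 (SE; edgeR adjusted p = 0.0029) between SA cells and mESC. The value rested on replicate 1 of SA: without it the changes were 1.07, 0.84 and 1.79, still called in all 3 comparisons. The first call was lost without replicate 1 of 2C::GFP+ (edgeR adjusted p = 0.0997), replicate 2 of 2C::GFP+ (0.19), replicate 2 of SGC (0.096) or replicate 2 of mESC (0.10), and the third without replicate 2 of mESC (0.084). The call against SGC cells was lost without any 1 of the 6 libraries outside SA, at adjusted p between 0.07 and 0.34.

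Zfp57, whose protein keeps imprinted regions methylated, had 515 and 300.2 CPM in SA cells, 525 and 296 in SGC cells, 565 and 438 in 2C::GFP+ cells, and 459 and 307 in mESC. In every group replicate 1 was above replicate 2, the groups overlapped, and no comparison called the gene. The promoter of Zfp809, which had the largest rise, is shown with that of Chaf1b, which had the largest fall, in the same layout. Zfp809 on the plus strand at chr9:22225453-22225752 held 11 CG dinucleotides and 49.3% G and C, and Chaf1b on the plus strand at chr16:93883651-93883950 held 30 and 70.3%.
Zfp809: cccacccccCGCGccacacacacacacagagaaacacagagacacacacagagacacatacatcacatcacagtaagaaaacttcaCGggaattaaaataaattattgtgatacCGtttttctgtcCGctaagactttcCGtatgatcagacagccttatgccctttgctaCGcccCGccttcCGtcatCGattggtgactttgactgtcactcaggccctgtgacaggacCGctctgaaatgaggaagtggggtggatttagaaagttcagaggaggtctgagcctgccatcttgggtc
Chaf1b: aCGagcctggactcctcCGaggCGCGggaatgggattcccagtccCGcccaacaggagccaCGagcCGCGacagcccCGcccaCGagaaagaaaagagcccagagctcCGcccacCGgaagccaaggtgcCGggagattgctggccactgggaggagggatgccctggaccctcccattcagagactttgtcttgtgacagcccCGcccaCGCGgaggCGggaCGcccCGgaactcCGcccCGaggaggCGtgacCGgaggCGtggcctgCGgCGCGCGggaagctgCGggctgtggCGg

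All 3 HP1 genes were lower in SA cells than in 2C::GFP+ cells. Cbx5, which encodes HP1α, had 353 and 406 CPM in SA cells, 531 and 529.8 in SGC cells, 519 and 622 in 2C::GFP+ cells, and 558 and 526 in mESC. The SA libraries were the 2 lowest, and the log2 fold change was -0.59 ± 0.13 (SE; edgeR adjusted p = 0.0049) against 2C::GFP+ cells, -0.48 ± 0.13 (SE; edgeR adjusted p = 0.025) against SGC cells and -0.51 ± 0.13 (SE; edgeR adjusted p = 0.0061) against mESC. Cbx1, which encodes HP1β, had 218 and 230.5 CPM in SA cells, 286 and 274 in SGC cells, 330.1 and 290.1 in 2C::GFP+ cells, and 244 and 232 in mESC. The level was raised in 2C::GFP+ cells relative to mESC, with 0.38 ± 0.12 (SE; edgeR adjusted p = 0.036), and lowered in SA cells relative to 2C::GFP+ cells, with -0.47 ± 0.12 (SE; edgeR adjusted p = 0.011), so that SA cells and mESC lay close together, with -0.09 ± 0.12 (SE; edgeR adjusted p = 0.59).

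Cbx3, which encodes HP1γ, the form also found in transcribed gene bodies, had 47.03 and 51.9 CPM in SA cells, 62.6 and 64.8 in SGC cells, 72.8 and 66.3 in 2C::GFP+ cells, and 96.9 and 97.7 in mESC. The groups did not overlap, with SA cells lowest, then SGC cells, 2C::GFP+ cells and mESC. Its log2 fold change was -0.98 ± 0.13 (SE; edgeR adjusted p = 4.3e-05) between SA cells and mESC, called in all 18 alternatives. It was -0.50 ± 0.13 (SE; edgeR adjusted p = 0.012) between SA and 2C::GFP+ cells and -0.48 ± 0.13 (SE; edgeR adjusted p = 0.015) between 2C::GFP+ cells and mESC. About 10% of the 31-base words of Cbx3 transcripts occur in other genes as well. With 1 library left out, Cbx3 lost the call between SA and 2C::GFP+ cells without replicate 1 of 2C::GFP+ (edgeR adjusted p = 0.095) or of SA (0.074), and the call between 2C::GFP+ cells and mESC without replicate 2 of 2C::GFP+ (0.093) or of mESC (0.07). Cbx1 lost its call against 2C::GFP+ cells without replicate 1 of 2C::GFP+ (0.10) and its call between 2C::GFP+ cells and mESC in 5 of the 8 such fits (0.066 to 0.22). Cbx5 lost its call against SGC cells without replicate 1 of SGC (0.13), replicate 2 of SGC (0.087) or replicate 1 of SA (0.11), and that against mESC without replicate 1 of mESC (0.057).

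Of the 4 HUSH and MORC genes, Morc3 was called between SA and 2C::GFP+ cells, Pphln1 and Morc2a between SA cells and mESC, and Mphosph8 in no comparison. Mphosph8, whose chromodomain protein MPP8 reads methylated H3K9 for HUSH, had 103 and 99.8 CPM in SA cells, 119.5 and 107 in SGC cells, 123 and 102 in 2C::GFP+ cells, and 102 and 109 in mESC. Pphln1, which encodes the HUSH subunit periphilin, had 37.5 and 46.5 CPM in SA cells, 33.3 and 44.3 in SGC cells, 34.3 and 35.4 in 2C::GFP+ cells, and 27.1 and 29.1 in mESC. Both mESC libraries lay below the other 6, and the SGC libraries overlapped those of SA and of 2C::GFP+ cells. The log2 fold change between SA cells and mESC was 0.58 ± 0.18 (SE; edgeR adjusted p = 0.016). Morc2a, the ATPase that HUSH recruits, had 156 and 150.3 CPM in SA cells, 175 and 172 in SGC cells, 164 and 156 in 2C::GFP+ cells, and 197 and 194 in mESC. It was highest in mESC, and lower in SA cells than there, with -0.35 ± 0.12 (SE; edgeR adjusted p = 0.025).

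Morc3, an ATPase that silences endogenous retroviruses in ESCs, had 143 and 159 CPM in SA cells, 184 and 194 in SGC cells, 206 and 182 in 2C::GFP+ cells, and 187 and 179.6 in mESC. Both SA libraries lay below the other 6, with a log2 fold change against 2C::GFP+ cells of -0.37 ± 0.12 (SE; edgeR adjusted p = 0.04), near the threshold. This call was lost in 14 of 18 alternatives, DESeq2 (adjusted p = 0.15) and the fits without replicate 1 of 2C::GFP+ (0.25) or of SA (0.17) among them, and the fold change stayed between -0.46 and -0.26. The Pphln1 call was lost without replicate 2 of SA (edgeR adjusted p = 0.097) or replicate 1 of mESC (0.087), and the Morc2a call without replicate 2 of SA (0.096), replicate 1 of mESC (0.095) or replicate 2 of mESC (0.094), and with DESeq2 (0.12). In all, the Morc2a call was lost in 10 of 18 alternatives and the Pphln1 call in 5 of 18. Morc3 lies 7827 bases upstream of Chaf1b on chromosome 16, on the same strand.

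CAF-1 deposits H3-H4 at the replication fork, and the gene of its middle subunit had the smallest adjusted p of the 32 between SA cells and each other group. Chaf1b (GRCm38 chromosome 16, 93883901 to 93906115, plus strand) had 57.2 and 48.7 CPM in SA cells, 114 and 135 in SGC cells, 129 and 132 in 2C::GFP+ cells, and 125 and 119 in mESC. The SA libraries lay far below the other 6, and the SGC libraries overlapped both those of 2C::GFP+ cells and those of mESC. The log2 fold change was -1.30 ± 0.14 (SE; edgeR adjusted p = 2.2e-05) against 2C::GFP+ cells, -1.23 ± 0.14 (SE; edgeR adjusted p = 9.7e-05) against SGC cells and -1.20 ± 0.14 (SE; edgeR adjusted p = 9.3e-06) against mESC. All 3 calls held in all 18 alternatives, with values between -1.40 and -1.09. Between SGC and 2C::GFP+ cells the change was -0.07 ± 0.13 (SE; edgeR adjusted p = 0.9), and between 2C::GFP+ cells and mESC it was 0.10 ± 0.13 (SE; edgeR adjusted p = 0.65).

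Chaf1a, which encodes the large CAF-1 subunit, had 107 and 112 CPM in SA cells, 133 and 131 in SGC cells, 139 and 114 in 2C::GFP+ cells, and 155 and 144 in mESC. It was lower in SA cells than in mESC, with a log2 fold change of -0.45 ± 0.13 (SE; edgeR adjusted p = 0.012), while against 2C::GFP+ cells the value was -0.21 ± 0.13 (SE; edgeR adjusted p = 0.25). That call was lost without replicate 1 of SA (edgeR adjusted p = 0.0505) or of mESC (0.075). Exons of Ubxn6 on the other strand cover 52.5% of the exonic bases of Chaf1a, and Ubxn6 had 9.26 to 14.6 CPM in the 8 libraries.

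ASF1 proteins hand H3-H4 dimers to CAF-1 and to HIRA. Asf1a had 36.2 and 32.05 CPM in SA cells, 25.3 and 29.97 in SGC cells, 28.7 and 28.8 in 2C::GFP+ cells, and 24.7 and 25.4 in mESC, and was higher in SA cells than in mESC, with a log2 fold change of 0.45 ± 0.16 (SE; edgeR adjusted p = 0.037). Since 48% of the exonic bases of Asf1a lie opposite exons of Mcm9, reads of the 2 genes cannot be told apart there. Mcm9, a helicase gene, had 222.5 and 130.2 CPM in SA cells, 52.6 and 52.5 in SGC cells, 34.4 and 30.6 in 2C::GFP+ cells, and 26.0 and 27.2 in mESC, with a log2 fold change of 2.74 between SA cells and mESC (edgeR adjusted p = 1.4e-06). The Asf1a call was also lost in 9 of 18 alternatives. Among these were 5 of the 8 fits with 1 library left out, where the log2 fold change was between 0.39 and 0.46. Asf1b, the form of dividing cells, had 55.9 and 43.1 CPM in SA cells, 50.1 and 55.8 in SGC cells, 59.96 and 51.1 in 2C::GFP+ cells, and 66.1 and 62.98 in mESC, and was called in no comparison.

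In the LSD1 complex both CoREST scaffold genes were called and the 3 enzyme genes were not. Kdm1a, which encodes LSD1, a demethylase of mono- and dimethylated H3K4, had 248 and 226 CPM in SA cells, 256 and 254 in SGC cells, 288 and 253 in 2C::GFP+ cells, and 261 and 273 in mESC. In SA cells both its values were below all others. Hdac1, a histone deacetylase gene, had 354 and 299 CPM in SA cells, 314 and 319.9 in SGC cells, 349 and 314 in 2C::GFP+ cells, and 303 and 282 in mESC. Its paralogue Hdac2 had 203 and 159.6 CPM in SA cells, 187 and 184 in SGC cells, 228 and 187 in 2C::GFP+ cells, and 219 and 202 in mESC. The libraries of SA and 2C::GFP+ cells overlapped for both deacetylases. The 3 enzyme genes were called in no comparison, with log2 fold changes between SA and 2C::GFP+ cells of -0.19 ± 0.12, -0.02 ± 0.13 and -0.19 ± 0.14 (SE). For Hdac1, 40% of its 31-base words recur in other genes. Gm10093, the gene that shares most of them, had 15.04 to 24.8 CPM.

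Rcor1, the CoREST scaffold that links LSD1 to nucleosomes and deacetylases, had 31.04 and 32.2 CPM in SA cells, 50.6 and 48.5 in SGC cells, 43.8 and 45.03 in 2C::GFP+ cells, and 50.1 and 54.97 in mESC. Its 2 lowest values were those of SA cells. The log2 fold change was -0.49 ± 0.14 (SE; edgeR adjusted p = 0.018) against 2C::GFP+ cells, -0.65 ± 0.14 (SE; edgeR adjusted p = 0.0072) against SGC cells and -0.73 ± 0.14 (SE; edgeR adjusted p = 0.0008) against mESC, and the last of these held in all 18 alternatives. Rcor2, the scaffold gene abundant in ESCs, had 148 and 177 CPM in SA cells, 277 and 239.9 in SGC cells, 311 and 269 in 2C::GFP+ cells, and 207 and 140.2 in mESC. It was higher in 2C::GFP+ cells than in mESC, with 0.74 ± 0.18 (SE; edgeR adjusted p = 0.0086), and lower in SA cells than in 2C::GFP+ cells, with -0.84 ± 0.18 (SE; edgeR adjusted p = 0.0038), and than in SGC cells, with -0.67 ± 0.18 (SE; edgeR adjusted p = 0.022). The SA libraries overlapped those of mESC, with -0.10 ± 0.18 (SE; edgeR adjusted p = 0.68).

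The Rcor1 call against 2C::GFP+ cells was lost in 10 of 18 alternatives, among them DESeq2 (adjusted p = 0.062). It was also lost without any 1 of the 4 libraries compared, where the log2 fold change was between -0.49 and -0.44. The Rcor1 call against SGC cells was lost without replicate 1 of SGC, at a log2 fold change of -0.61. Rcor2 lost the call against 2C::GFP+ cells without replicate 1 of that group (edgeR adjusted p = 0.0501), the call against SGC cells without replicate 1 of SGC (0.15) or of SA (0.12), and the call between 2C::GFP+ cells and mESC without replicate 1 of 2C::GFP+ (0.067) or replicate 2 of mESC (0.082), where the log2 fold change was 0.48.

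PRC1.6 is the variant Polycomb complex that keeps germline genes silent in ESCs, with PCGF6 as its defining subunit and MGA, L3MBTL2 and E2F6 as partners that bring it to DNA or chromatin. Pcgf6 (GRCm38 chromosome 19, 47033617 to 47050906, minus strand) had 52.1 and 44.5 CPM in SA cells, 78.98 and 79.1 in SGC cells, 82.5 and 72.8 in 2C::GFP+ cells, and 83.3 and 77.3 in mESC. Both SA libraries lay below the other 6, and the log2 fold change was -0.68 ± 0.14 (SE; edgeR adjusted p = 0.0024) against 2C::GFP+ cells, -0.71 ± 0.14 (SE; edgeR adjusted p = 0.0038) against SGC cells and -0.73 ± 0.14 (SE; edgeR adjusted p = 0.00072) against mESC. Like the 3 Chaf1b calls, these 3 held in all 18 alternatives, with values between -0.88 and -0.55. Between SGC and 2C::GFP+ cells Pcgf6 differed by 0.02 ± 0.14 (SE; edgeR adjusted p = 0.97).

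Mga, the scaffold that pairs with MAX, had 214 and 314 CPM in SA cells, 369 and 339.6 in SGC cells, 379 and 397 in 2C::GFP+ cells, and 420.5 and 414 in mESC. The SA libraries were the lowest but differed from each other, with a log2 fold change of -0.56 ± 0.16 (SE; edgeR adjusted p = 0.018) against 2C::GFP+ cells and -0.66 ± 0.16 (SE; edgeR adjusted p = 0.0039) against mESC. Without replicate 1 of SA these were -0.28 (edgeR adjusted p = 0.14) and -0.38 (0.033), and the first call was also lost without replicate 1 of 2C::GFP+ (0.074). L3mbtl2 had 196 and 235 CPM in SA cells, 172 and 175 in SGC cells, 211 and 188 in 2C::GFP+ cells, and 180.5 and 156 in mESC. The SA libraries lay above those of SGC cells and mESC and overlapped those of 2C::GFP+ cells. Its log2 fold change between SA cells and mESC was 0.35 ± 0.13 (SE; edgeR adjusted p = 0.045), and this was lost without replicate 2 of SA (0.22, edgeR adjusted p = 0.26), replicate 2 of mESC (adjusted p = 0.31), replicate 2 of 2C::GFP+ (0.063) or replicate 2 of SGC (0.084). In all, the L3mbtl2 call was lost in 8 of 18 alternatives, among them the limma fit to log2(TPM + 1) (adjusted p = 0.225). E2f6 had 18.9 and 26.7 CPM in SA cells, 20.2 and 20.5 in SGC cells, 21.4 and 19.1 in 2C::GFP+ cells, and 29.2 and 28.3 in mESC, and was called nowhere.

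Sumo2 encodes the modifier that KAP1, SETDB1 and many repressors carry or bind. It had 32.5 and 37.8 CPM in SA cells, 41.5 and 42.9 in SGC cells, 51.6 and 44.1 in 2C::GFP+ cells, and 43.5 and 38.1 in mESC. Both SA libraries lay below the other 6, with a log2 fold change between SA and 2C::GFP+ cells of -0.45 ± 0.16 (SE; edgeR adjusted p = 0.043). Other genes share 22.5% of its 31-base words. The call was lost in 13 of 18 alternatives, among them DESeq2 (adjusted p = 0.11) and the fits without replicate 1 of 2C::GFP+ (0.27), of SA (0.22), of SGC (0.066) or of mESC (0.06). Ctcf, the insulator protein gene, had 238 and 244 CPM in SA cells, 196 and 225 in SGC cells, 225 and 208 in 2C::GFP+ cells, and 226 and 220.2 in mESC. Its 2 highest values were in SA cells, and the gene was called in no comparison.

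**Figure D2:**
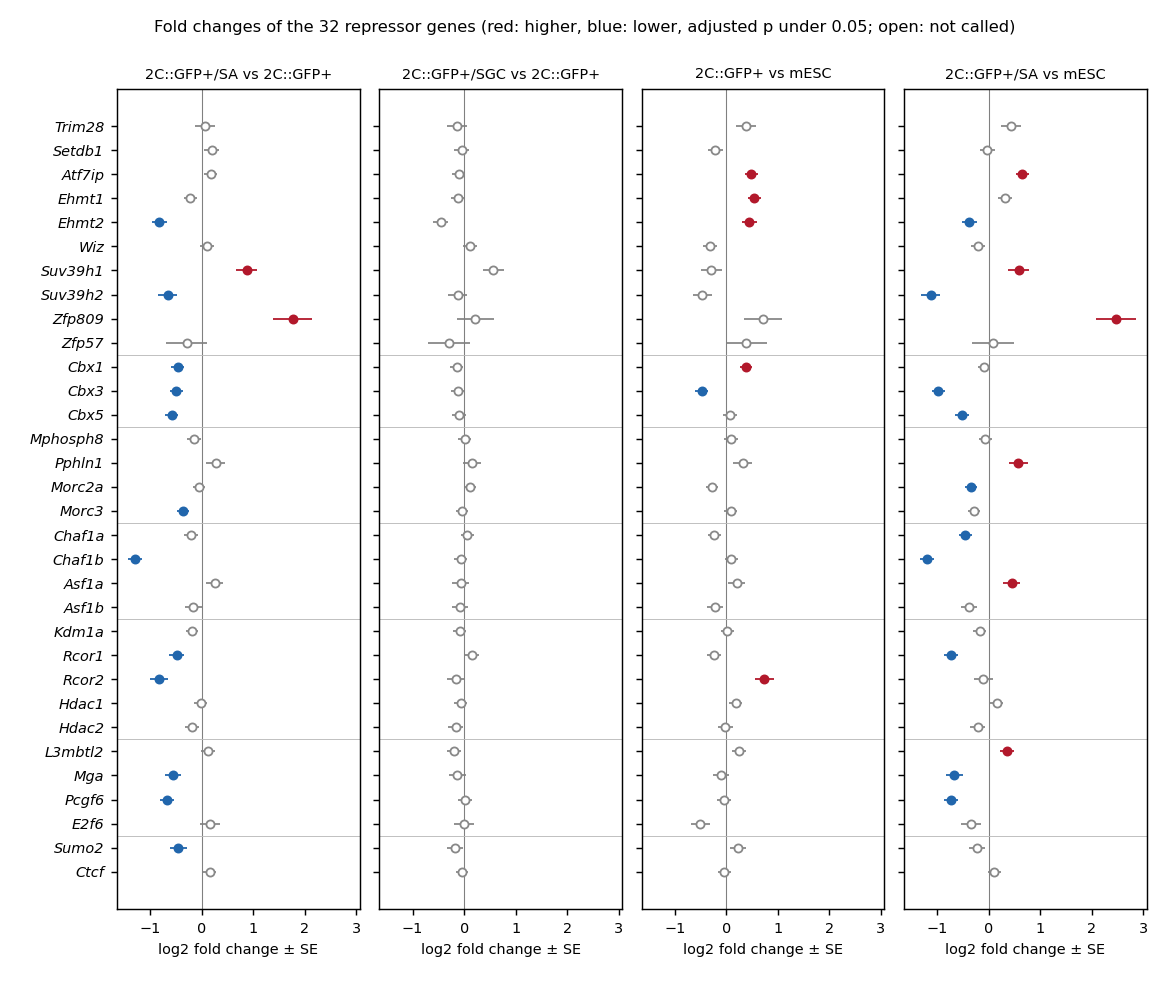
Log2 fold changes with SE for the 32 repressor genes in 4 comparisons, genes down the page by complex, filled red where higher and blue where lower at an adjusted p under 0.05 and open grey where not called. The 2C::GFP+/SGC panel has no filled point and the 2C::GFP+/SA panels have Chaf1b at -1.30 and -1.20 and Zfp809 at 1.76 and 2.47.

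No repressor was called in SGC cells, which had SGC0946 alone. The 32 log2 fold changes between SGC and 2C::GFP+ cells lay between -0.45 and 0.57, with a median of -0.07. The 2 with the smallest p were Ehmt2, with -0.45 ± 0.14 (SE; edgeR adjusted p = 0.33), and Suv39h1, with 0.57 ± 0.20 (SE; edgeR adjusted p = 0.38). Neither was called in any of 19 alternatives, in which Ehmt2 ranged from -0.59 to -0.29 and Suv39h1 from 0.35 to 0.79. The values nearest 0 came without replicate 2 of SGC for Ehmt2 and without replicate 1 of 2C::GFP+ for Suv39h1. The panels of the fold change plot share groups, so that 2C::GFP+ libraries stand in 3 of the 4 comparisons drawn.

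**Figure D3:**
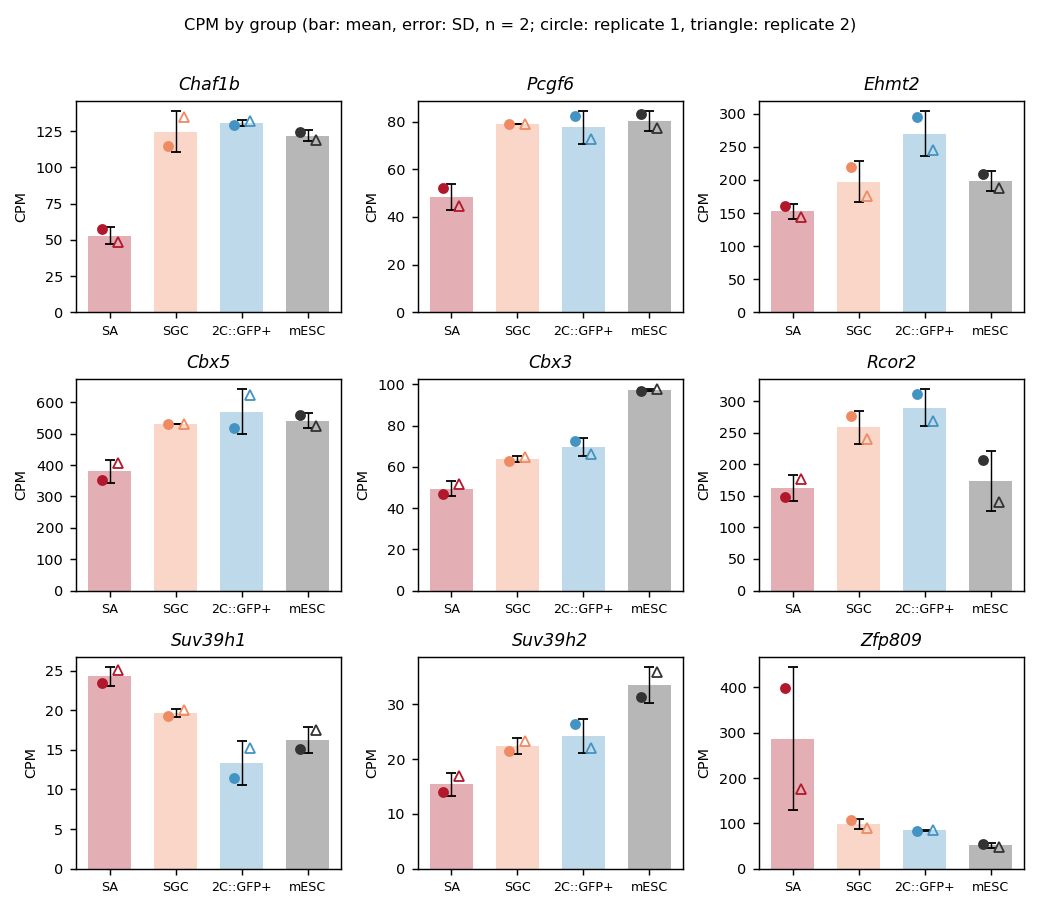
CPM of 9 repressor genes in SA, SGC, 2C::GFP+ and mESC cells, with bars for the mean, error bars for the SD of 2 libraries, circles for replicate 1 and triangles for replicate 2. Chaf1b averaged 52.9 CPM in SA cells, 124.7 CPM in SGC cells, 130.5 CPM in 2C::GFP+ cells and 122 CPM in mESC, and the SA bar of Zfp809 averages 398 and 175 CPM.

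The bars of CPM by group show the order of the groups for each of the 9 repressors drawn. For Pcgf6 and Cbx5 the libraries of SGC cells, 2C::GFP+ cells and mESC overlapped and those of SA cells lay below them. Chaf1b had the same order, except that its mESC libraries lay just below those of 2C::GFP+ cells. Ehmt2 was highest in both 2C::GFP+ libraries. Rcor2 had its highest mean in 2C::GFP+ cells, where its libraries overlapped those of SGC cells. Cbx3, Suv39h2 and Zfp809 had SGC means between those of SA and 2C::GFP+ cells, with mESC means at the far end beyond 2C::GFP+. Suv39h1 was highest in SA cells, then in SGC cells, and its libraries overlapped between 2C::GFP+ cells and mESC.

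Per length, on the TPM scale, the repressors were abundant: their median level was 85.2 TPM over the 8 libraries, against 6.72 TPM for all tested genes, and 15 of 32 exceeded 100 TPM. Trim28 was the highest at 2292 TPM on average (range 1674 to 2665), followed by Zfp57 at 374 (281 to 491), Hdac1 at 309 (280 to 338) and Rcor2 at 237 (134 to 312). Suv39h1 was the lowest at 11.8 TPM (6.85 to 17.2), after E2f6 at 13.7 (9.52 to 17.3) and Suv39h2 at 18.3 (9.07 to 28.2), and the ranges of these 3 overlapped. The range of Trim28 stood clear of the ranges of all the others, while Zfp57, Hdac1 and Rcor2 overlapped.

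The balance within pairs of related genes differed between groups. The TPM of Suv39h1 was 1.40 and 1.24 times that of Suv39h2 in SA cells, 0.753 and 0.715 times in SGC cells, 0.361 and 0.581 times in 2C::GFP+ cells, and 0.402 and 0.407 times in mESC. SA cells were thus the only one of the 4 groups in which both libraries had Suv39h1 above Suv39h2. The TPM of Chaf1b was 1.01 and 0.826 times that of Chaf1a in SA cells, 1.63 and 1.95 times in SGC cells, 1.76 and 2.19 times in 2C::GFP+ cells, and 1.53 and 1.57 times in mESC. The SA libraries lay below the others in this ratio, while the ratio of Ehmt1 to Ehmt2 was highest in them, at 0.542 and 0.573 times in SA cells, 0.425 and 0.504 times in SGC cells, 0.345 and 0.392 times in 2C::GFP+ cells, and 0.355 and 0.330 times in mESC. Asf1b over Asf1a was 2.40 and 2.09 in SA cells, 3.09 and 2.90 in SGC cells, 3.25 and 2.76 in 2C::GFP+ cells, and 4.16 and 3.87 in mESC, with the shared Mcm9 exons included. Exons of other genes on the opposite strand also cover 52.5% of the exonic bases of Chaf1a, 14.6% of Suv39h1 and 9.98% of Suv39h2. Any reads shared there are included in the ratios above, and their part was not tested. These ratios are a description, and no test of them was made.

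**Figure D4:**
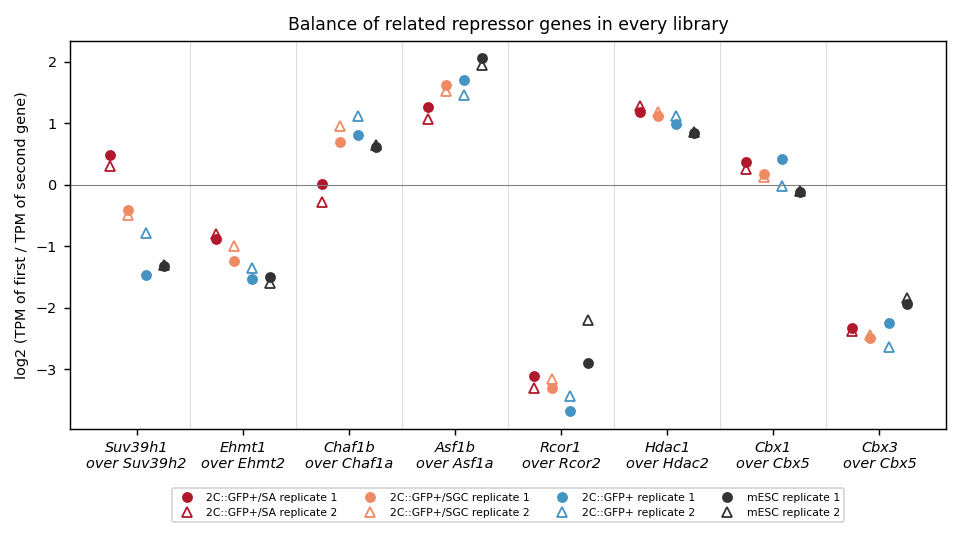
Log2 of the TPM of the first gene over that of the second for 8 pairs of related repressor genes, with the 4 groups side by side within each pair, circles for replicate 1 and triangles for replicate 2. Suv39h1 over Suv39h2 is above 0 in the SA libraries and below 0 in the other 6, and Chaf1b over Chaf1a is lowest in the SA libraries.

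The pair plot also holds 4 further pairs. Hdac1 stayed between 1.80 and 2.43 times the TPM of Hdac2 in all libraries, Cbx1 between 0.923 and 1.34 times that of Cbx5, Cbx3 between 0.160 and 0.279 times that of Cbx5, and Rcor1 between 0.0783 and 0.218 times that of Rcor2.

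Genes that work with the 32 repressors were counted in lists set beside them. Of 19 tested partners of HP1, H3K9 methylation and KAP1, 3 were higher and 6 lower in SA cells than in 2C::GFP+ cells. In this comparison 12.1% of genes with a mean of at least 10 CPM were higher and 24.9% lower. Over all tested genes the shares were 14.9% higher and 13.8% lower. The counts of this and the following lists are to be read beside these shares, and no list was tested as a set. Zfp462, a zinc-finger gene linked to heterochromatin in ESCs, averaged 83.2 CPM in SA cells and 219 in 2C::GFP+ cells, with a log2 fold change of -1.40 ± 0.16 (SE; edgeR adjusted p = 3.6e-05). Morc1, the germline MORC gene, averaged 86.9 CPM in SA cells and 214 in 2C::GFP+ cells, with -1.30 ± 0.14 (SE; edgeR adjusted p = 3.1e-05). Uhrf1, which guides maintenance of DNA methylation, changed by -0.60 ± 0.15 (SE; edgeR adjusted p = 0.008), and Fam208b, a paralogue of the HUSH gene Tasor, rose, with 0.80 ± 0.15 (SE; edgeR adjusted p = 0.0018).

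Of 27 subunits of CoREST, NuRD, SIN3 and NCOR outside the 32, 1 was higher and 8 were lower. Phf21a, the LSD1 complex subunit that reads unmethylated H3K4, averaged 35.5 CPM in SA cells and 82.4 in 2C::GFP+ cells, with a log2 fold change of -1.21 ± 0.16 (SE; edgeR adjusted p = 0.0001). The NuRD gene Mta3 averaged 76.5 CPM in SA cells and 156 in 2C::GFP+ cells, with -1.03 ± 0.13 (SE; edgeR adjusted p = 8.7e-05), and Sin3a, the SIN3 scaffold, changed by -0.49 ± 0.12 (SE; edgeR adjusted p = 0.0068). Tbl1x, an NCOR subunit, rose, with 0.58 ± 0.12 (SE; edgeR adjusted p = 0.0023). Like Ehmt2 and Rcor2, Phf21a and Mta3 were higher in 2C::GFP+ cells than in mESC, with log2 fold changes of 1.21 ± 0.16 (SE; edgeR adjusted p = 8.1e-05) and 0.87 ± 0.13 (SE; edgeR adjusted p = 0.00027).

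Of 18 histone chaperones and assembly factors, 2 were higher and 3 lower in SA cells than in 2C::GFP+ cells. Nap1l1 and the FACT subunit Ssrp1 fell, with log2 fold changes of -0.62 ± 0.13 (SE; edgeR adjusted p = 0.0035) and -0.45 ± 0.14 (SE; edgeR adjusted p = 0.025). Hira, the replication-independent H3.3 chaperone, changed by -0.55 ± 0.18 (SE; edgeR adjusted p = 0.035), and Supt6 rose, with 0.43 ± 0.12 (SE; edgeR adjusted p = 0.017). Of 15 other PRC1 subunits, 2 were higher and 4 lower. Kdm2b, which tethers a different variant PRC1 to CpG islands, changed by -0.88 ± 0.13 (SE; edgeR adjusted p = 0.00031), Tfdp2, a partner of E2F proteins, by -0.56 ± 0.12 (SE; edgeR adjusted p = 0.0045), and Max, the partner of MGA, by -0.50 ± 0.13 (SE; edgeR adjusted p = 0.0087). Pcgf1, a paralogue of Pcgf6, rose, with 0.75 ± 0.22 (SE; edgeR adjusted p = 0.021).

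Of 15 other SUMO pathway genes, none was higher and 5 were lower in SA cells than in 2C::GFP+ cells. The SUMO ligase gene Pias4 changed by -0.60 ± 0.13 (SE; edgeR adjusted p = 0.0038), and the SUMO protease gene Senp6 by -0.48 ± 0.12 (SE; edgeR adjusted p = 0.0097). Of 17 cohesin genes and other repressors, 2 were higher and 2 lower. Ythdc1, a reader of methylated RNA known to silence retrotransposons, averaged 250.1 CPM in SA cells and 124 in 2C::GFP+ cells, with 1.01 ± 0.14 (SE; edgeR adjusted p = 0.00019), and Rif1, a replication timing factor and repressor of this state, averaged 1131 CPM in SA cells and 607 in 2C::GFP+ cells, with 0.90 ± 0.14 (SE; edgeR adjusted p = 0.00046). Znfx1, a helicase gene, fell, with -1.41 ± 0.16 (SE; edgeR adjusted p = 3.8e-05), and the cohesin release factor Wapl fell, with -0.43 ± 0.12 (SE; edgeR adjusted p = 0.016). The lists' median log2 fold changes, in the order given here, were -0.28, -0.20, -0.09, -0.14, -0.27 and -0.15, against the -0.16 of genes with a mean of at least 10 CPM.

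Most of the repressors have promoters rich in CG dinucleotides. Their RefSeq windows, found for 31 of the 32 genes (Hdac1 was not matched), had a median of 64.0% G and C and 28 CG dinucleotides over 43 windows, against 52.7% and 7 over 32851 windows of all genes. The windows of all genes were not matched to the repressors by expression level, so a trait of well-expressed genes cannot be told apart here. In the richest window of each gene, Zfp57 and Zfp809 alone held fewer than 15 CG dinucleotides, as did 62.9% of all 27025 genes, and the other 29 held 15 to 53. The 8-letter E2F-type words TTTCCCGC, TTTGGCGC, TTTCGCGC and TTTGCCGC, searched on both strands, occurred in 2 of 31 repressors, Cbx3 and (in a second window, not printed) Suv39h1, and in 2.6% of all genes. The word CACGTG (an E-box, its own reverse complement) occurred in 4 of 31 and 8.09% of all genes, and CCAAT, on either strand, in 17 of 31 and 41.1%. None of these words contains another, and their presence is a description of sequence, not of binding.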

How the data were processed

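The submitters' processing notes name STAR 2.7.4a, featureCounts 2.0.0, FastQC 0.11.9 and Trim Galore 0.6.5 (and Cell Ranger, no version), with mm10 (GRCm38). How strand and multi-mapping reads were handled is not given there. The deposited count values are whole numbers per gene that the authors left without normalization. The deposited TPM values equal count over a fixed length, scaled per library. Symbols and coordinates are from GENCODE M21. No per-sample column was left out. The members and lists were chosen with earlier results of these data known.

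Counts kept by filterByExpr were TMM-scaled and fitted with 1 term per group by robust quasi-likelihood in edgeR 4.0.16 (R 4.3.3), with Benjamini-Hochberg adjustment over 20608 genes and 5 comparisons tested separately. SE is the absolute log2 fold change over the root of F. Levels are CPM with SD over n = 2 libraries. DESeq2 1.42.0 and limma 3.58.1 gave alternatives. The edgeR common dispersion corresponded to a 20.6% coefficient of variation. The edgeR, DESeq2 and limma fits were also run on simulated counts, and no result here rests on that run. With 2 libraries a group, a gene that was not called may still differ. Named genes are all 32 members and, per list, up to 3 called in the more frequent direction and 1 in the other by smallest adjusted p, except 1 gene that is not reported here. Of the listed names, Tasor, Tasor2 and Codanin1 were not matched as such (Fam208a and Fam208b are older symbols of the first and second).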

Additional observations from a re-analysis of the deposited data

How the results depend on the processing

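Over 44 fold changes of repressors and up to 19 alternatives each, 619 of 794 checks kept direction and side of the threshold, 175 lost the call and 0 changed direction. The 44 were those called in edgeR's fit to all 8 libraries and the 2 with the smallest p between SGC and 2C::GFP+ cells. Calls gained by other repressors are thus not in this tally. Between 2C::GFP+ and mESC, for example, the 4 libraries alone called 9 repressors, against 6. The cause of a lost call was not tested, except that leaving out libraries or using only the 4 compared lowers the degrees of freedom by construction. Unfiltered limma on log2(TPM + 1) called 3075 genes and 4 repressors between SA and 2C::GFP+ cells, 1354 and 3 between SA and SGC, 1620 and 0 between 2C::GFP+ and mESC, 5964 and 6 between SA and mESC, and 4369 genes for any difference. Filtered limma called 7 repressors between SA and 2C::GFP+ with a pseudocount of 1 and 7 with 0.1, and 2 and 2 between 2C::GFP+ and mESC, where the pseudocount of 1 gave 2924 genes. Limma with 1 shifted the median of all genes by -0.16 between SA and SGC cells, and with 0.1 its calls there were 926 higher and 1636 lower, against 1633 and 1686 in edgeR. Between SA cells and mESC it called 3 repressors higher and 10 lower. Only the 4 libraries compared gave 2210 genes between SA and SGC. Between SGC and 2C::GFP+ cells, where edgeR called 0 genes, DESeq2 called 271, no count filter 499, limma with 0.1 1, the 4 libraries alone 326, the replicate block 284 and, chosen after seeing the data, the fit without both SA libraries 79, always with 0 repressors.

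Without 1 library at a time, counts ranged from 2890 to 5861 genes and 4 to 13 repressors between SA and 2C::GFP+, from 1207 to 3324 and 2 to 7 between SA and SGC (2 without SGC replicate 1), from 0 to 431 and 0 between SGC and 2C::GFP+, from 2872 to 5869 and 0 to 9 between 2C::GFP+ and mESC (0 without mESC replicate 2, 3 without its replicate 1, 2 without 2C::GFP+ replicate 1), and from 6630 to 9648 and 10 to 16 between SA and mESC (10 without mESC replicate 2). Whether the replicate numbers pair libraries was not settled. Same-numbered libraries' deviations from their group means correlated weakly, and always positively, with r between 0.0411 and 0.142. Replicate 1 was the deeper library in every group, so a pairing and an effect of depth cannot be told apart. With the number as a replicate block, repressors called were 15 between SA and 2C::GFP+, 10 between SA and SGC, 9 between 2C::GFP+ and mESC, and 19 between SA and mESC. The block also raised the genes called between SA and 2C::GFP+ from 5910 to 6830. Thinning each library to 12299931 counts, also chosen after seeing the data, ended the calls of Rcor1 and Sumo2 between SA and 2C::GFP+ and of Ehmt2 between SA and mESC.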

Other observations

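Genes of S phase that E2F proteins control were listed because CAF-1 acts at replication forks. Of 18 tested, 1 was higher and 6 were lower in SA cells than in 2C::GFP+ cells. Among genes with a mean of at least 10 CPM, 12.1% were higher and 24.9% lower there. Ccne1, which encodes cyclin E1, averaged 154.5 CPM in SA cells and 316 in 2C::GFP+ cells, with a log2 fold change of -1.03 ± 0.15 (SE; edgeR adjusted p = 0.00022), whereas its paralogue Ccne2 averaged 25.5 CPM in SA cells and 11.4 in 2C::GFP+ cells, with 1.17 ± 0.19 (SE; edgeR adjusted p = 0.00065). The licensing factor gene Cdc6 averaged 59.8 CPM in SA cells and 103 in 2C::GFP+ cells, with -0.79 ± 0.13 (SE; edgeR adjusted p = 0.00071), and the helicase gene Mcm6 changed by -0.64 ± 0.12 (SE; edgeR adjusted p = 0.0018). The list's median log2 fold change was -0.23, against -0.16 over genes with a mean of at least 10 CPM, and a link to Chaf1b was not tested. The 18 genes summed to 5455 and 5149 CPM in SA cells, 5784 and 5565 in SGC cells, 6734 and 5862 in 2C::GFP+ cells, and 5482 and 4997 in mESC, so the SA libraries lay below those of 2C::GFP+ cells but overlapped those of mESC.

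Neighbours within 100 kb of the repressors with the largest rise and fall were read after their values had been seen. Next to Zfp809 on chromosome 9, Zfp599 averaged 41.8 CPM in SA cells and 35.3 in 2C::GFP+ cells, with a log2 fold change of 0.25 ± 0.16 (SE; edgeR adjusted p = 0.28). Zfp810, at 4.43 CPM in SA cells and 9.60 in 2C::GFP+ cells, fell, with -1.12 ± 0.28 (edgeR adjusted p = 0.0088). Acp5, at 2.85 CPM in SA cells and 12.8 in 2C::GFP+ cells, fell too, with -2.14 ± 0.30 (edgeR adjusted p = 0.00017). Gm48627, at 0.467 CPM in SA cells and 0.00835 in 2C::GFP+ cells, was called higher (edgeR adjusted p = 0.021), at counts too low for a fold change. Upstream of Morc3 and Chaf1b on chromosome 16, Dop1b averaged 109.6 CPM in SA cells and 77.5 in 2C::GFP+ cells and rose, with 0.50 ± 0.13 (edgeR adjusted p = 0.0096). Within Dop1b on the opposite strand, 2310043M15Rik, at 3.55 CPM in SA cells and 10.9 in 2C::GFP+ cells, fell, with -1.62 ± 0.24 (edgeR adjusted p = 0.00026).

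Replicate 1, the deeper library, had the higher CPM in all 4 groups for 7 of the 32 repressors (Trim28, Setdb1, Ehmt1, Ehmt2, Zfp57, Morc2a and Hdac2), or 21.9%, against 14% of all tested genes. Replicate 2 had the higher or an equal CPM in all 4 groups for Suv39h1 and Pphln1, or 6.25%, against 6.85% of all tested genes.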
